A study of Mus musculus with 6 samples.

Results

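This account covers 10 genes of the AP-1 and immediate early response, of 23366 genes in the table. They were taken by symbol: the FOS family (Fos, Fosb, Fosl1, Fosl2), the JUN family (Jun, Junb, Jund), the stress-induced factor Atf3, and the early response genes Egr1 and Ier3. All 10 had a row, and all 10 were among the 12820 genes with a mean of at least 10 normalized counts that were tested. The cells were SC4, a line of mouse Schwann cells isolated from an Nf2-null schwannoma, a tumour of the nerve sheath. Loss of Nf2, which encodes the tumour suppressor merlin, is shared by both groups. One group received a control siRNA and the other pooled YAP siRNA. YAP is a transcriptional co-activator restrained by the Hippo pathway. RNA was taken 48 hours after transfection, with 3 libraries per group, numbered 1 to 3. All libraries come from 1 line. No label says that the 3 of a group were separate cultures, so the p-values reflect the spread among these 6 libraries only, and that spread could be technical.

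AP-1 is a dimer of basic leucine zipper proteins. FOS proteins pair with JUN proteins, JUN proteins can also pair with each other, and ATF3 can pair with JUN proteins or with itself. Growth factor and stress signals through the ERK and JNK kinases switch on many of these genes within minutes and also stabilise some of the proteins. In Schwann cells c-Jun is known for its part in the response to nerve injury. YAP, bound to DNA through TEAD factors, is known to share many enhancers with AP-1.

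Promoter sequences of 300 bases, from 250 before to 50 after the start of transcription, were given by RefSeq (build GRCm38.p6) for 8 of the 10 genes; Fosl1 and Egr1 were not among them. None of the 8 held the AP-1 site TGACTCA on either strand, which 5.2% of 32851 promoters of that length held. The cAMP response element TGACGTCA (1.79% of promoters), the TEAD motif GGAATG (14.7%) and the CArG box bound by serum response factor (1.63%) were also found in 0 of 8. A shorter stretch, TGACG, is part of the cAMP response element TGACGTCA but not of the AP-1 site TGACTCA. It was searched after these results were seen, and 4 of 8 held it on either strand against 20.8% of all promoters. That search also finds TGACGTCA but not TGACTCA. A variant known from the Jun promoter, TGACATCA, was likewise searched afterwards and was found in Jun alone among the 8, and in 3.62% of promoters. The windows below are shown because they hold those matches in genes described here. Each has 30 bases, read 5′ to 3′ on the strand of the gene, with the match in capitals.
Fos, chr12:85473812-85473841, plus strand: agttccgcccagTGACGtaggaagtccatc
Fosb, chr7:19310088-19310117, minus strand: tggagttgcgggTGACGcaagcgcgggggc
Junb, chr8:84978837-84978866, minus strand: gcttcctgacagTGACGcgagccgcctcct
Atf3, chr1:191183323-191183352, minus strand: ttaatagcattaCGTCAgcctgggattggt
Jun, chr4:95052249-95052278, minus strand: aagcctcggggTGACATCAtgggctatttt
The first base of the match lay 66 bases before the start site in Fos, 60 in Fosb, 106 in Junb, 7 in Atf3 and 45 in Jun. Fos held another TGACG 129 bases before its start. A match is a description of the letters, and sites outside these 300 bases were not searched. No binding was measured in this series.

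The values, here called normalized counts, are read counts per gene scaled by each library's size factor. The reads behind them numbered between 18025132 and 60078880 per library. Yap1, the target of the siRNA pool, was checked first: it had 4749.6, 5732 and 4751 normalized counts in control libraries 1, 2 and 3, and 936, 571 and 475 after YAP siRNA. Replicate 1 of both groups stood apart from replicates 2 and 3, and the remaining Yap1 level was 19.7% of the control in pair 1 against 9.97% and 9.99% in pairs 2 and 3. Among 12 Schwann cell markers 8 reached a mean of 10 normalized counts, Ngfr, Pmp22 and L1cam among them; Sox10, S100b and Gfap were among those that did not. Their summed level was 20112 to 25414 normalized counts in controls and 19978 to 32430 after YAP siRNA, below that of the 6 fibroblast markers (241207 to 512261, and 193734 to 377362). Of the fibroblast markers, Col1a1 alone had a mean of 212139 in controls and 148288 after YAP siRNA, and Lum did not reach a mean of 10. The sums therefore do not rank cell identity. Within these overlapping sums single markers moved in the paired fit described below: Erbb3, Sox2 and Pmp22 rose and Ngfr fell among the Schwann cell markers, and Col1a1 fell and Dpt rose, by 1.53 on the log2 scale, among the fibroblast markers. The sums for leukocytes (285 to 355, and 221 to 315) and endothelium (150.2 to 235, and 186 to 271) also overlapped, while Csf1r of the leukocyte list fell by 1.05 on the log2 scale, with no overlap between the groups. The 4 epithelial markers summed to 85.0 to 131 in controls and 30.1 to 34.7 after YAP siRNA, with Cdh1 and Krt5 under a mean of 10; of the other two, Krt8 fell. The part of these markers in the results below was not tested.

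Differences are given on the log2(normalized count + 1) scale, YAP siRNA minus control, which understates changes of low genes. In limma without pairing, 0 of 12820 genes passed at an adjusted p under 0.05 (0% called), where 1558 had an unadjusted p under 0.05, edgeR called 0 and DESeq2 called 729, or 5.81% (2 of the 10 genes, Ier3 and Fosl1). That fit without pairing was planned as the main test. Deviations from the group means correlated between same-numbered libraries, at 0.788, 0.705 and 0.532. Control 2 correlated with YAP siRNA 3 at 0.552, and control 3 with YAP siRNA 2 at 0.516. Replicate 1 was thus set apart, but the values cannot tell how replicates 2 and 3 pair. A pair here means 2 libraries of the same number. Pair values, counts over pairs and the blocked fit all rest on that numbering. The other pairing of replicates 2 and 3 was not fitted, and pair values would differ under it. A fit with replicate number as a blocking factor (the blocked fit, or the block) is given for each gene. The words rose and fell are kept for genes that passed in the blocked fit. There, 4 of the 10 genes fell (Ier3, Fosb, Fosl1 and Atf3), against 8.96% of all genes tested, and 1 rose (Fosl2), against 8.32%. The 10 genes were chosen with earlier results of these data known, so these counts are not independent evidence. Without a mean-variance trend the blocked limma fit called 0 and 0 of the 10, and of all genes 12 as higher and 18 as lower. Over the 10 genes the median difference was −0.36, beside 0.0094 over all genes tested. The values in the 3 pairs were all lower for 5 genes (27.1% of all genes tested) and all higher for Fosl2 (27.4%). All YAP siRNA libraries lay below all controls for 3 of the 10 (9.49% of all genes tested) and above them for 0 (9.47%). Without replicate 1 of both groups the blocked fit called 4 of the 10 as lower, where it called 21.8% of all genes, and 2 as higher, where it called 22%.

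**Figure D1:**
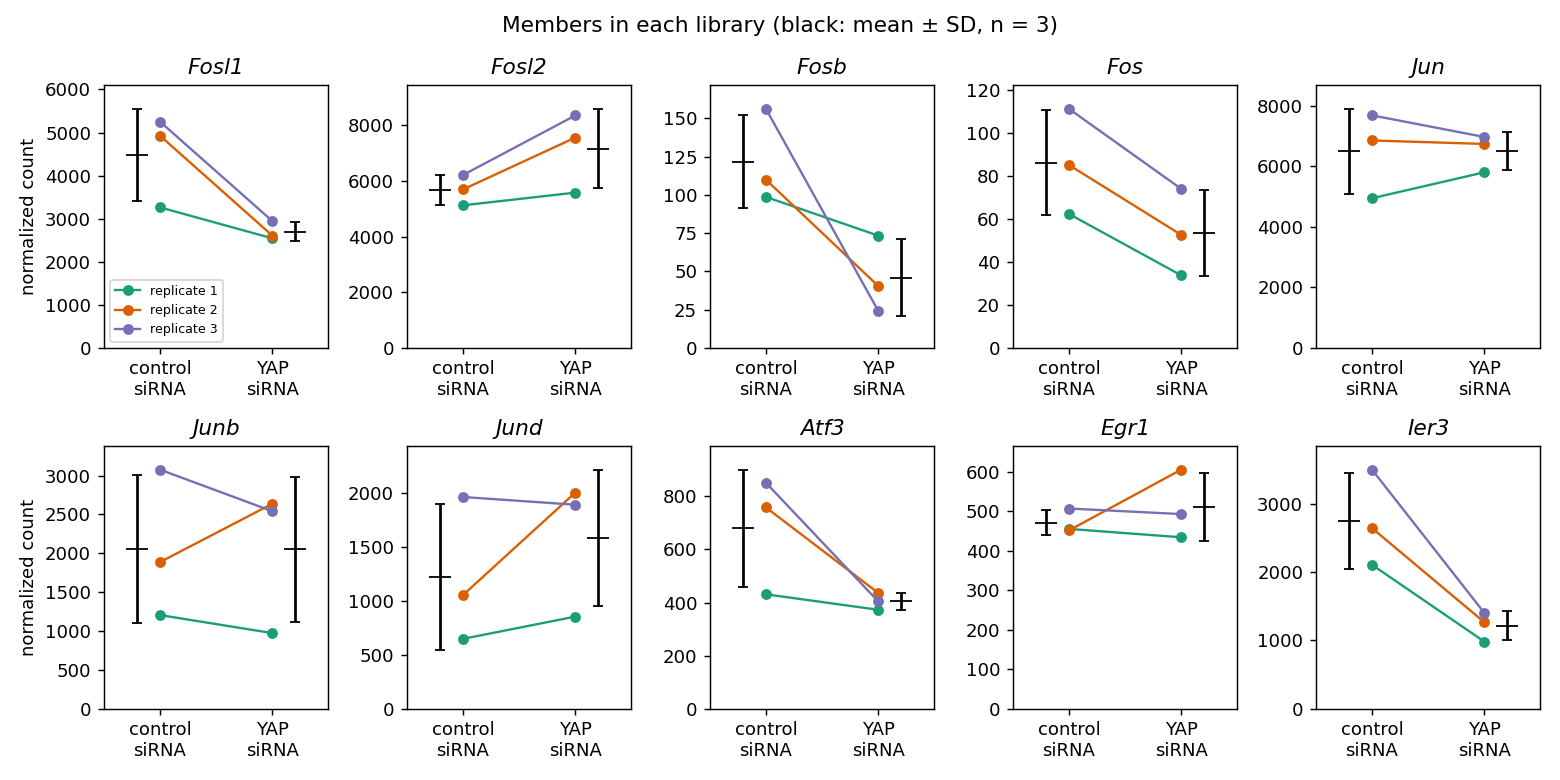
Normalized counts (vertical axis, linear, from 0) of the 10 genes in the 6 libraries; lines join same-numbered libraries of the control siRNA and YAP siRNA groups, and black bars give the mean and SD of 3 libraries. Ier3, Fosl1 and Fosb lie lower after YAP siRNA with no overlap between the groups, and the other 7 overlap.

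Levels were first compared between genes per kb of the longest annotated coding transcript. In the control libraries the order was led by Ier3 with 2431 ± 622 normalized counts per kb, Fosl1 with 2404 ± 573 and Jun with 2034 ± 440 (SD, n = 3). Ier3 and Fosl1 changed order between libraries, while Jun was below both in each control library. Junb (1137 ± 524), Fosl2 (868 ± 83.2) and Jund (733 ± 405) came next with overlapping ranges, though Junb was above Jund in each control library. Atf3 followed at 343 ± 111 and Egr1 at 105 ± 6.91 normalized counts per kb. Fos and Fosb, the family members with a strong transactivation domain, were lowest at 40.8 ± 11.6 and 32.1 ± 8.07. FOS family transcripts in the control libraries were thus mainly those of Fosl1 and Fosl2, whose proteins lack that domain.

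Fosl1 encodes FRA-1, a FOS protein stabilised by ERK signalling and abundant in many invasive tumour cells. It had 3263, 4929 and 5254 normalized counts in control libraries 1, 2 and 3, and 2544, 2608 and 2946 after YAP siRNA. Each YAP siRNA library was below every control library. Fosl1 fell by 0.70 on the log2 scale (SE 0.120, 95% interval −0.98 to −0.43, limma adjusted p = 0.00778 blocked and 0.263 unblocked), to 60.2% of the control mean. The two-sided exact permutation p was 0.1, and groups of 3 allow no smaller value. The fall in pair 1 was the smallest, with 78.0% of the control left against 52.9% and 56.1% in pairs 2 and 3. Without replicate 2 of both groups it did not pass (blocked limma adjusted p = 0.0883), and without replicate 1 it was −0.88.

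The 3′ part of the Fosl1 locus overlaps Ccdc85b, a coding gene on the opposite strand: 60.4% of the 31-base words of the longest Fosl1 transcript occur in Ccdc85b transcripts as their reverse complement. Whether the counting used strand is not given in the sources used here, so reads of the pair may not be fully told apart. Ccdc85b itself had 222, 1045 and 1595 normalized counts in controls and 287, 1555 and 1567 after YAP siRNA. Its difference was 0.31 (limma adjusted p = 0.165 with the block), opposite in sign to that of Fosl1.

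Fosl2 encodes FRA-2, the other FOS protein without the strong transactivation domain. It had 5123, 5692 and 6209.8 normalized counts in the controls and 5579, 7557 and 8352 after YAP siRNA. The groups overlapped, since YAP siRNA library 1 lay below control libraries 2 and 3, while each pair was higher after YAP siRNA. Fosl2 rose by 0.32 (SE 0.0941, 95% interval 0.11 to 0.53, limma adjusted p = 0.0497 blocked and 0.553 unblocked). That p is at the edge of the threshold: with a pseudocount of 0.5, with no filter on low values, in limma without a trend, and without replicate 2 or replicate 3 the call was lost, with blocked adjusted p up to 0.370. Without the block the difference was 0.20 when YAP siRNA replicate 3 was left out and 0.49 when YAP siRNA replicate 1 was.

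The FOS family therefore differed in make-up between the groups. Per kb, Fosl1 made up 67.6%, 73.8% and 73.0% of FOS family transcripts in control libraries 1, 2 and 3, and 60.6%, 54.0% and 54.5% after YAP siRNA. Fosl2 made up 30.3%, 24.3% and 24.6% in controls, and 37.9%, 44.6% and 44.1% after YAP siRNA. Neither share overlapped between the groups. The shares restate the differences of Fosl1 and Fosl2 above and carry no test of their own. Their size is uncertain, since the full Fosl1 length was used although part of it overlaps Ccdc85b. The summed FOS family level per kb was 2589.5, 3584 and 3863 in controls and 2253, 2591 and 2899.6 after YAP siRNA, and the groups overlapped.

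**Figure D2:**
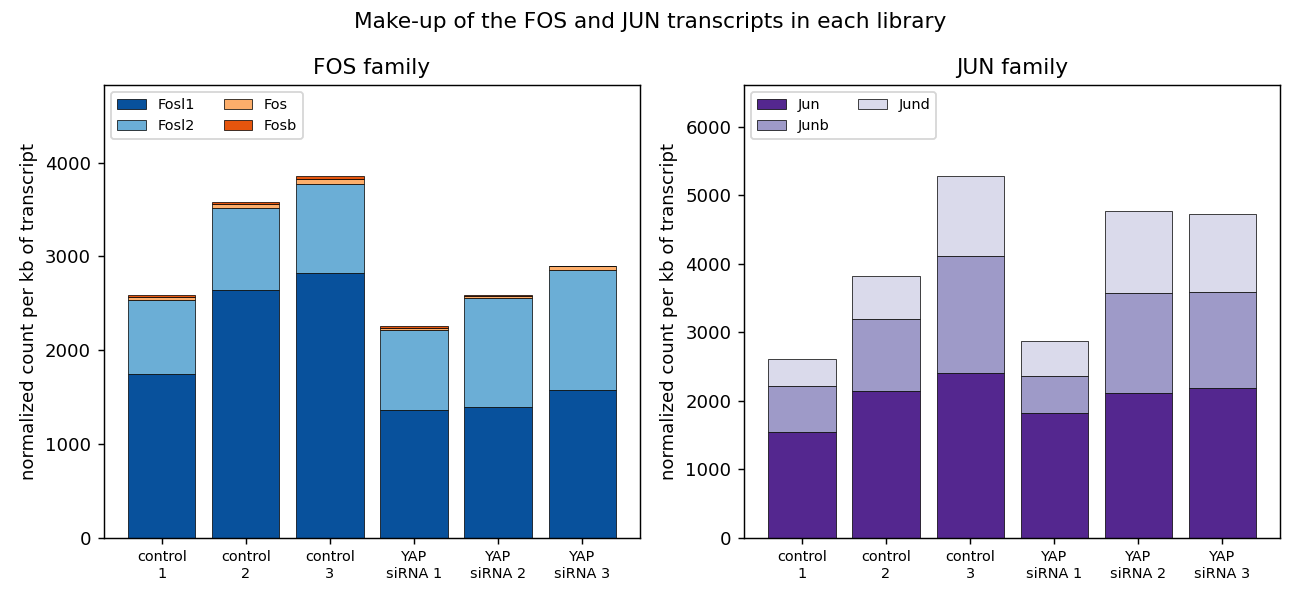
Normalized counts per kb of transcript (vertical axis, stacked from 0) of the FOS family genes on the left and the JUN family genes on the right, in each of the 6 libraries. Fosl1 takes 67.6% to 73.8% of each control FOS bar and 54.0% to 60.6% of each YAP siRNA bar, while the JUN bars of replicate 1 are the shortest in both groups.

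Fosb encodes an early FOS protein with a transactivation domain. It had 98.6, 109.9 and 156 normalized counts in controls and 73.3, 40.4 and 24.1 after YAP siRNA, from 16 to 339 reads per library. All YAP siRNA libraries were below all controls, but the remaining level ranged from 74.3% of the control in pair 1 through 36.7% in pair 2 to 15.4% in pair 3. Fosb fell by 1.5 (SE 0.403, 95% interval −2.42 to −0.58, limma adjusted p = 0.0375 blocked and 0.279 unblocked; exact permutation p = 0.1). It was −0.92 without replicate 3 of both groups, not past the threshold (blocked adjusted p = 0.170), −1.53 without replicate 2 (0.154) and −2.03 without replicate 1 (1.2e-08). With 2 pairs left, few degrees of freedom remain, and the p then draws mostly on the spread of other genes.

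Fos, the founding member of the family, was nearly as low as Fosb. It had 62.2, 85.0 and 111 normalized counts in controls and 33.7, 52.5 and 73.8 after YAP siRNA, from 28 to 241 reads per library. The groups overlapped, while within same-numbered pairs 54.1%, 61.8% and 66.5% of the control was left. The difference of −0.71 (SE 0.267, 95% interval −1.32 to −0.10) missed the threshold in blocked limma (adjusted p = 0.0993) and in limma without the block (0.547). Its size was close to that of Fosl1, and its reads were fewer than those of Fosl1 in every library. Whether read number had a part in the missed call was not tested. Unblocked, the difference was −0.42 when YAP siRNA library 1 was left out. Over the 13 blocked settings the adjusted p of Fos was between 0.0803 and 0.399.

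None of the 3 genes of the JUN family, whose proteins are the partners that FOS proteins need, passed with the block. Jun had 4939, 6846 and 7677 normalized counts in controls and 5797, 6732 and 6962 after YAP siRNA. The YAP siRNA values lay within the range of the controls. The difference was 0.022 with a 95% interval of −0.20 to 0.24 (limma adjusted p = 0.895 blocked and 0.990 unblocked), and it was −0.083 without replicate 1 of both groups. Junos, a transcript antisense to Jun, covers 6.39% of the 31-base words of the Jun transcript.

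Junb, which encodes a JUN protein with weaker transactivation, had 1205, 1886 and 3078 normalized counts in controls and 973, 2638 and 2542 after YAP siRNA. The spread within each group was far wider than the difference between the means, and the pairs went both ways. The difference was −0.034 with a 95% interval of −0.39 to 0.32 (limma adjusted p = 0.899 with the block). It was 0.10 without replicate 1 of both groups.

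Jund, the JUN gene least dependent on growth signals, had 648, 1054 and 1966 normalized counts in controls and 855, 2007 and 1894 after YAP siRNA. Pairs 1 and 2 were higher after YAP siRNA, at 132% and 190.5% of the control, and pair 3 was at 96.3%. The difference of 0.42 (95% interval 0.035 to 0.81) missed the threshold in blocked limma (adjusted p = 0.119), and the value turned on single libraries. With the block it was 0.44 without replicate 1 (adjusted p = 2.2e-04), 0.17 without replicate 2 (0.676) and 0.66 without replicate 3 (0.0123). With 1 library left out and no block it was between 0.041 and 0.84, namely 0.041 without control replicate 1, 0.84 without control replicate 3, and 0.82, 0.21 and 0.25 without YAP siRNA replicate 1, 2 or 3, none past the threshold. An antisense transcript, Gm11175, covers 50.1% of the 31-base words of the Jund transcript, so part of its reads is uncertain.

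Junb and Jund varied more with the replicate number than with the siRNA. The log2 value of replicate 1 minus the mean of replicates 2 and 3 was −1.0 in controls and −1.41 after YAP siRNA for Junb. For Jund these differences were −1.15 and −1.19. Of the 10 genes, 9 were lower in replicate 1 than in the mean of the other replicates in both groups. Fosb was the exception, at −0.41 in controls and 1.21 after YAP siRNA. The share of all genes lower in replicate 1 of both groups was not computed. The count therefore cannot be read as particular to these 10 genes.

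Atf3 encodes a stress-induced factor of the ATF family that often represses its targets. It had 431, 758 and 851.5 normalized counts in controls and 373, 436 and 404 after YAP siRNA. Control library 1 lay just below YAP siRNA library 2, so the groups overlapped, and all YAP siRNA values were within a narrow band. Atf3 fell by 0.69 (SE 0.179, 95% interval −1.10 to −0.29, limma adjusted p = 0.0325 blocked and 0.403 unblocked), to 59.4% of the control mean. The remaining level was 86.5% of the control in pair 1, 57.5% in pair 2 and 47.4% in pair 3. Without replicate 2 or replicate 3 of both groups it did not pass (blocked adjusted p = 0.213 and 0.165).

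Ier3, also known as IEX-1, encodes a small regulator of survival induced by ERK and NF-kappaB signalling. It had 2106, 2643 and 3500.0 normalized counts in controls and 981, 1264 and 1402 after YAP siRNA. Every YAP siRNA library was below every control, and 46.6%, 47.8% and 40.0% of the control was left in pairs 1, 2 and 3. On the log2 scale the pairs differed by −1.10, −1.06 and −1.32. Ier3 fell by 1.16 (SE 0.102, 95% interval −1.39 to −0.93, limma adjusted p = 0.00122 blocked and 0.174 unblocked; exact permutation p = 0.1). It passed in 12 of 13 blocked settings, the exception being limma without a trend (adjusted p = 0.0650), and without the block in DESeq2 (0.00137).

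Egr1, a zinc finger factor induced by ERK through serum response factor, was the steadiest of the 10 in the controls. It had 455, 451 and 507 normalized counts in controls and 434, 605.5 and 493 after YAP siRNA. YAP siRNA library 2 was the highest of the 6, and the remaining libraries overlapped. The difference was 0.10 with a 95% interval of −0.24 to 0.45 (limma adjusted p = 0.667 blocked and 0.915 unblocked), and it was −0.055 without replicate 2 of both groups.

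**Figure D3:**
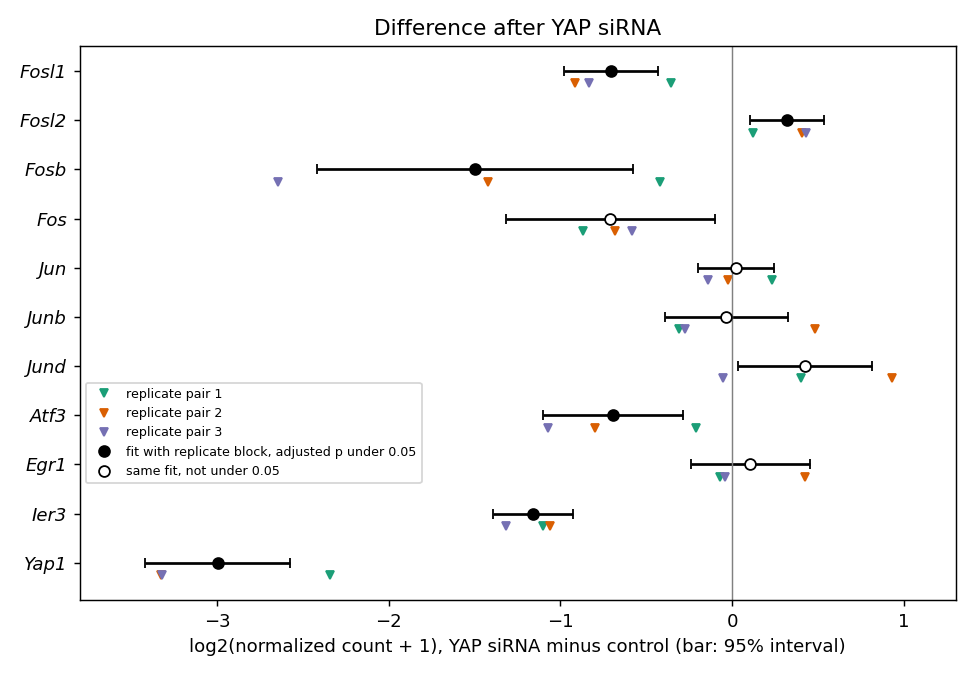
Difference in log2(normalized count + 1), YAP siRNA minus control (horizontal axis), for the 10 genes and Yap1: circles and bars give the blocked fit with its 95% interval, filled where adjusted p was under 0.05, and triangles give the 3 replicate pairs. Ier3 has its same-numbered pairs between −1.32 and −1.06, whereas those of Fosb run from −2.65 to −0.42.

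Genes whose values over the 6 libraries were nearest to 5 of these genes were found by the root-mean-square difference of log2 values, each centred on its own mean, among 10754 genes with a mean of at least 50. For Ier3 (own root-mean-square deviation 0.637) they were St6gal1 (0.103), Egr3 (0.124) and Ahr (0.127), all of which fell with the block. For Fosl1 (0.418) they were Fuca2 (0.0479), Ppard (0.0579) and Syngr1 (0.0678). For Fos (0.536) they were Fam117a (0.0778), Osgin1 (0.0946) and Il12rb1 (0.110), which fell by 0.77, 0.65 and 0.83 on the log2 scale. For Jun (0.207) they were Kif1c (0.0423) and Myl6b (0.0459), and for Egr1 (0.159) Zfp830 (0.0592), Mus81 (0.0627) and Narfl (0.0633), none of which passed. The near genes were picked for matching values, so their differences resemble those of the 5 genes by construction and are no support for them. The values describe likeness over 6 libraries that share the replicate pattern, with no test.

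Other genes of the response were described from 4 lists. Of all genes tested, 8.32% rose and 8.96% fell. Without replicate 2 of both groups the block called 136 of all genes as higher and 192 as lower. Of other basic leucine zipper genes, which include the small MAF, ATF and CREB factors, 4 rose and 3 fell of 26 tested, with a median difference of 0.020. Maf rose from 1919 ± 272 to 3857 ± 1137 normalized counts and Atf5 from 1318 ± 683 to 2408 ± 1227, while Atf6, a sensor of endoplasmic reticulum stress, fell from 5861 ± 523 to 3893 ± 105 (SD, n = 3 for each). The others that passed, named after their values were seen, were Atf2 and Cebpg (higher), Maff and Ddit3 (lower). Without replicate 2 of both groups 2 of this list were called as higher and 0 as lower.

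Among other immediate early genes 4 rose and 9 fell of 40 tested (8.32% and 8.96% of all genes), with a median difference of −0.034. Egr3, a relative of Egr1, fell (SE 0.174 on the log2 scale, blocked limma adjusted p = 0.00584) from 319, 308 and 416 normalized counts in controls to 130, 162 and 185 after YAP siRNA, with no overlap. Nab2, a co-repressor of EGR factors that they induce, fell by 0.69 and Errfi1, a feedback inhibitor of EGFR, fell by 0.60 on the log2 scale. The 4 that rose were Dusp1, Klf4, Klf6 and Tnfaip3, with differences of 0.49, 0.88, 0.57 and 0.89; they were named after their values were seen. Egr2, a driver of myelination in Schwann cells, had a difference of 0.49 (blocked limma adjusted p = 0.109), so that of these EGR genes Egr3 fell and Egr1 and Egr2 did not pass. Without replicate 2 of both groups 0 of this list were called as higher and 2 as lower, and without replicate 1 11 and 17. Without replicate 1 the block called 22% of all genes as higher and 21.8% as lower.

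Of upstream kinases and factors 3 rose and 2 fell of 32 tested (8.32% and 8.96% of all genes), with a median difference of −0.052. The ETS factor gene Elk3 rose by 0.36 and Mapk7, which encodes the kinase ERK5, by 0.54, while Fbxw7, part of a ubiquitin ligase that marks JUN for degradation, fell by 0.43 on the log2 scale. Map2k6 (−0.76), named after its values were seen, also passed. Srf, the gene for serum response factor, had a difference of 0.50 that missed the threshold (blocked limma adjusted p = 0.0645). Without replicate 2 of both groups 0 of this list were called as higher and 0 as lower by limma with the block.

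Genes with described AP-1 sites in their control regions formed the last list, written with earlier results of these libraries known, so its direction is not independent evidence. Of 34 tested, 4 rose and 18 fell (8.32% and 8.96% of all genes), and the median difference was −0.87. Spp1, which encodes osteopontin, fell from 91227 ± 54677 to 19035 ± 8513 normalized counts and the urokinase gene Plau from 2096 ± 1144 to 755 ± 367 (SD, n = 3 for each). Ptgs2, the gene for COX2, fell by 2.64 on the log2 scale. The 4 that rose, named after their values were seen, were Ccna2, Mt1, Mt2 and Hmox1. Whether AP-1 acts on these genes here was not measured. Without replicate 2 of both groups 0 were called as higher and 13 as lower, and in blocked limma without a trend 0 and 0.

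**Figure D4:**
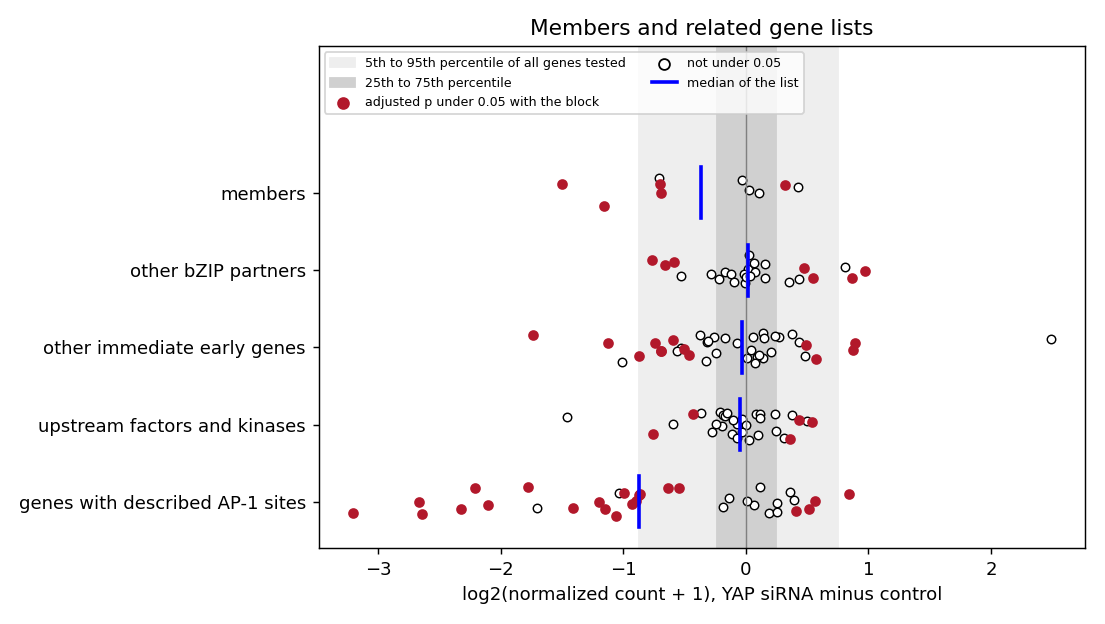
Difference in log2(normalized count + 1) with the block (horizontal axis) for each tested gene of the 5 lists; red points had adjusted p under 0.05, blue lines mark list medians, and grey bands mark the middle of all 12820 genes tested. The median lies at −0.36 for the 10 genes and at −0.87 for genes with described AP-1 sites, and between −0.052 and 0.020 for the other lists.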

How the data were processed

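Poly(A) RNA was made into directional paired-end libraries, per the labels' protocols. The submitters' processing notes name the build mm9, the aligner TopHat2 (2.0.9), the counter HTSeq (0.6.1) and DESeq (1.14.0). Annotation, strand setting and filters: not given in the sources used here. The authors deposited a normalized signal: per library, read counts of genes over a single size factor. Of the values above 0, 100% in each library were multiples of what 1 read is worth there (0.461 to 1.52, tolerance 0.01 reads), which gave back the reads.

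The test was limma (3.58.1, R 4.3.3) on log2(value + 1) (mean-variance trend, two-sided, Benjamini-Hochberg over all genes with a mean of at least 10); alternatives on the reads were DESeq2 (1.42.0) and edgeR (4.0.16). The method was tested on simulated counts that were built with libraries paired by number. That simulation therefore cannot tell whether the real libraries are so paired. Same-numbered libraries' deviations from group means correlated at 0.788, 0.705 and 0.532, each over 0.1, so libraries were treated as paired by number. No label names a shared day or batch. Replicates 2 and 3 were not told apart, since they correlated at 0.516 and 0.552 across numbers. Those values are also over 0.1, so the rule could not decide how replicates 2 and 3 pair. Every 2 libraries of a group differed by more than sampling noise. Transcript lengths and shared 31-base words came from GENCODE transcripts of another build, and no coordinates were taken from them; promoter windows carry the RefSeq table's build, GRCm38.p6, which also differs from mm9.

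The members, lists, motifs and naming rule were chosen with earlier results of these data known. The rule names the 10 genes and Yap1, up to 3 called genes per list by blocked p, and the 3 nearest genes to each of 5 members. The planned comparison of protein sequences was not made, and some genes the rule or the lists would name are not reported here.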

Additional observations from a re-analysis of the deposited data

How the results depend on the processing

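Reads were fewest for Fosb and Fos, with as few as 16 and 28 in a library, and the effect of depth was not tested. Ier3, Fosl1, Fosb, Atf3 and Fos were below 0 and Fosl2 and Jund above 0 in all 30 settings. Without the replicate block limma called 0 genes, and 0 of the 10 members, under both pseudocounts, both filters, both scalings and without a trend, as did edgeR. Leaving out 1 library without the block gave 0 to 3 members lower and 0 higher, and 0 to 192 genes higher and 0 to 304 lower, the highest of each without control replicate 1. Without replicate 1 of both groups and without the block, 1 member was higher and 4 lower, with 1967 and 2150 genes. DESeq2 without the block called 2 members lower, and 330 genes higher and 399 lower.

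With the replicate block 1 member was higher and 4 lower, with 1067 and 1149 genes. The block kept 4 members lower under pseudocounts of 0.5 and 10, no filter, a filter of 50, one total, quantiles, edgeR and DESeq2, and 1 higher under each except a pseudocount of 0.5 and no filter, where it was 0. The genes called as higher and lower with the replicate block were 1053 and 1137 with a pseudocount of 0.5, 1072 and 1163 with 10, 1000 and 1137 with no filter, 1049 and 1103 with a filter of 50, 1226 and 1027 with libraries rescaled to one total, 1167 and 1182 with quantiles, 12 and 18 without a trend, 1190 and 1289 with edgeR, and 1182 and 1308 with DESeq2. With the block and without replicate 1, 2 members were higher and 4 lower, with 2823 and 2808 genes. Without replicate 2, 0 members were higher and 1 lower, with 136 and 192 genes. Without replicate 3, 1 was higher and 2 lower, with 511 and 575 genes. The member higher there was Jund, not Fosl2.

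The sign turned for genes that did not pass. Jun was −0.083 without replicate 1 of both groups, with or without the block, and −0.16 to 0.16 with 1 library left out (−0.16 with control replicate 1 left out, −0.0060 and −0.030 with YAP siRNA replicate 2 or 3 left out). Junb was 0.10 without replicate 1 of both groups, with or without the block, 0.087 with the block without replicate 3, and −0.37 to 0.44 with 1 library left out (0.31 when this was control replicate 3, 0.44 when it was YAP siRNA replicate 1). Egr1 was −0.055 with the block without replicate 2, and −0.025 to 0.22 with 1 library left out, the lowest without YAP siRNA replicate 2. The cause of these shifts was not tested.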

Other observations

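Some low immediate early and cytokine genes differed widely between the groups without passing. Npas4, an activity-induced transcription factor gene of neurons, had 4.55, 0 and 3.69 normalized counts in control libraries 1, 2 and 3. After YAP siRNA it had 7.21, 24.2 and 21.1 (limma adjusted p = 0.0857 with the block). These values came from 3, 0 and 8 reads in controls and 6, 24 and 14 after YAP siRNA. Its mean was 2.75 normalized counts in controls and 17.5 after YAP siRNA. Npas4 thus met the filter on the mean only through its YAP siRNA values. The part of that filter in its difference was not tested. Il11, an IL-6 family cytokine gene, had 10.6, 75.6 and 59.9 in controls and 10.8, 8.07 and 13.6 after YAP siRNA (limma adjusted p = 0.0875 with the block), so that control library 1 lay among the YAP siRNA values. Both were named after their values were seen.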
